A study of Mus musculus with 22 samples.

Results

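The nuclear genes for the subunits of the oxidative phosphorylation complexes were described in microglia and astrocytes sorted from the mouse cortex. Members were the genes whose array annotation symbol begins with Ndufa, Ndufb, Ndufc, Ndufs or Ndufv and a digit, is Sdha to Sdhd, begins with Uqcr or Atp5, or begins with Cox, a digit from 4 to 8 and a letter. These were 86 of 22485 genes on the array, each read by its brightest probe: 38 of complex I, 4 of complex II, 9 of complex III, 19 of complex IV and 16 of complex V. Cox5b-ps, Uqcrh-ps1, Ndufa11b and Ndufs6b, which the rule also takes in, are pseudogenes or retrocopies whose probes may also read the parent gene. The mitochondrially encoded subunits were not analysed here. All mice were C57BL/6 and 15 to 18 months old. The 4 groups were microglia from wildtype (WT) littermates (n = 7), microglia from APPswe/PS1dE9 mice (APP/PS1, n = 7), astrocytes from WT littermates (n = 4) and astrocytes from APP/PS1 mice (n = 4). The APPswe and PS1dE9 transgenes, a mutant amyloid precursor protein and a presenilin 1 lacking an exon, make this strain a model of amyloid deposition. Microglia had been sorted as CD11b+ CD45+ cells and astrocytes as GLT1+ CD11b- cells, both depleted of myelin and negative for O4, an oligodendrocyte marker. Samples of the same number shared a dual-colour array, with APP/PS1 in one dye and WT in the other and the dyes exchanged between arrays. All values are log2 expression.

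Oxidative phosphorylation makes most of a cell's ATP in the inner mitochondrial membrane. Complexes I (NADH dehydrogenase) and II (succinate dehydrogenase) pass electrons to ubiquinone, complex III (cytochrome bc1) passes them to cytochrome c, and complex IV (cytochrome c oxidase) to oxygen. Complexes I, III and IV pump protons, and complex V (ATP synthase) uses their return to make ATP. Several subunits of complex IV come in isoforms found mainly in muscle, testis or cells at low oxygen.

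The medians of the 22 samples lay between 6.80 and 6.90, and 82 of the 86 members had a value on every array. The brightest member value, 16.85, lay below the highest value in the table. Eif2s3y, a Y-linked gene, differed by 2 or more between the samples of 2 microglia arrays and of 2 astrocyte arrays. In the WT samples 13 of 13 astrocyte markers were higher in astrocytes (median difference 8.02) and 13 of 14 microglia markers lower (median −8.57). In the WT astrocyte samples 9 of 10 endothelial markers were also higher and 1 lower (median 5.17). Of the mural cells, the pericytes and smooth muscle of vessels, 8 of 9 markers were higher there (median 5.69). Markers also moved with genotype. In the astrocyte samples 12 of 13 astrocyte markers were lower in APP/PS1 and 1, Gfap, was higher (median −1.36). In the same samples 11 of 14 microglia markers were higher and 2 lower (median 1.90). Of the endothelial markers 9 of 10 were higher (median 1.11) and of the mural markers 7 of 9 (median 2.00). In the microglia samples 6 of 14 microglia markers were lower and 2 higher (median −0.42), 7 of 13 astrocyte markers were lower and 1 higher (median −0.82), and 8 of 12 neuronal markers were lower (median −0.48). The part of these shifts in the results on the subunits was not tested. In sorted populations, fewer cells of a type and less RNA per cell cannot be told apart.

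In microglia few subunits differed between genotypes, and the largest difference belonged to Cox6a2, the isoform of cytochrome c oxidase subunit VIa known from heart and skeletal muscle. Of the 86 members 7 rose in APP/PS1 (Cox6a2, Ndufa1, Ndufb2, Cox5b-ps, Cox7c, Ndufa6 and Cox6c) and 1 fell (Atp5b), at a limma adjusted p under 0.05 over all genes. Among all genes tested 8.27% rose and 11.4% fell (19.7% in either direction), so the share of members that rose, 8.14%, was near the background and the share that fell, 1.16%, was below it. The median change of the members was 0.05, against −0.04 for all genes. By complex the medians were 0.05 for complex I (3 of 38 rose), −0.02 for complex II (0 of 4 changed), 0.02 for complex III (0 of 9 changed), 0.18 for complex IV (4 of 19 rose) and 0.04 for complex V (1 of 16 fell). In limma's test without adjustment, p was under 0.05 for 21 members that were higher and 4 that were lower, against 12.9% and 18.3% of all genes. Of complex II 0 were among them and of complex III 3, all higher.

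Cox6a2 in the WT microglia ranged from 9.82 through a median of 10.18 to 11.15, and in the APP/PS1 microglia from 12.98 through 13.26 to 13.42. Every APP/PS1 sample lay above every WT sample. The change was 2.94 ± 0.23 (SE, n = 7 arrays; limma adjusted p = 2.66e-05), a 7.66-fold difference. It was of like size on both slides, since Cox6a2 in microglia stood at 3.04 on the 4 arrays of slide 1 and at 2.83 on the 3 of slide 2. Cox6a1, the isoform found in most tissues, ranged from 15.25 through 15.28 to 15.55 in WT and from 15.49 through 15.55 to 15.76 in APP/PS1 microglia, leaving out the array of replicate 4, where it had no value. These groups overlapped, and the change of 0.19 ± 0.07 did not pass the test (adjusted p = 0.0802).

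Ndufa1, a small membrane subunit of complex I, ranged from 12.76 through 12.84 to 13.06 in WT microglia and from 13.60 through 13.81 to 13.93 in APP/PS1 microglia. These groups did not overlap either, and the change was 0.89 ± 0.06 (adjusted p = 1.27e-05). Ndufb2, an accessory subunit of the membrane arm, ranged from 11.17 through 11.57 to 11.75 in WT and from 11.66 through 11.93 to 12.17 in APP/PS1. Its groups overlapped, and it rose by 0.39 ± 0.08 (adjusted p = 0.00927), with its other probe at 0.36 and also called. The other risers moved less: Cox5b-ps by 0.30 ± 0.09, Cox7c by 0.28 ± 0.08, the complex I accessory subunit Ndufa6 by 0.26 ± 0.07 and Cox6c by 0.19 ± 0.06. Atp5b, the catalytic beta subunit of ATP synthase, ranged from 13.57 through 13.79 to 14.16 in WT and from 13.41 through 13.63 to 13.95 in APP/PS1, and was lower on 7 of 7 arrays although the groups overlapped. It fell by 0.17 (SE 0.05, adjusted p = 0.0368).

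Cox6a2 and Ndufa1 were the only 2 members measured on every microglia array whose genotype groups did not overlap, both higher; 2.85% of all genes did so in that direction. For 0 members did the groups stand apart with APP/PS1 lower, against 1.56% of all genes. Of the 82 members with a value on every array, 15 were higher on every array, against 11.3% of all genes, and 1 was lower, against 15.1%. Only Cox6a2, Ndufa1 and Ndufb2 stayed past the threshold whichever array was left out. Without replicate 4, 5 or 7 the count of risers was 3, and without replicate 1, 2 or 6 it was 4. Without any 1 of the 7 arrays the count of falling members was 0. Without the array as a block 2 members rose and 0 fell, and on slide 1 alone, on slide 2 alone or on arrays matched in Eif2s3y the counts were also 2 and 0. Other settings gave more risers, 15 with the array as a random block or with quantile normalization, 18 over genes above the median gene, 12 with the microglia samples alone and 11 over genes measured on all arrays.

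**Figure D1:**
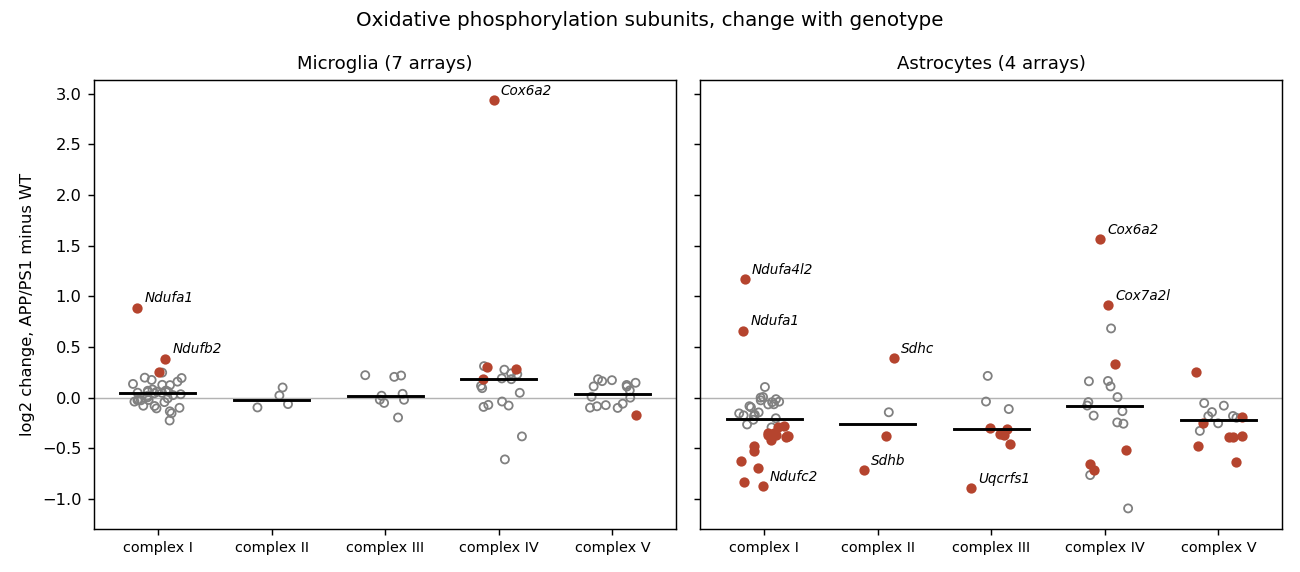
Fitted log2 change, APP/PS1 minus WT, of each of the 86 subunit genes by complex in microglia (left, 7 arrays) and astrocytes (right, 4 arrays). Filled red points passed the limma test over all genes at an adjusted p under 0.05, open points did not, and black lines are medians over a complex. Microglia medians sit between −0.02 and 0.18 and astrocyte medians between −0.31 and −0.08, while Cox6a2 is highest in both panels.

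In the fit of both cell types together, many more subunits differed in astrocytes, and most of those that did were lower in APP/PS1. With each cell type fitted alone there were not more calls in astrocytes (7 lower, 2 higher) than in microglia (2 lower, 12 higher). In the fit of both, 34 of 86 members fell in astrocytes and 7 rose (Cox6a2, Ndufa4l2, Cox7a2l, Ndufa1, Sdhc, Cox4i2 and Atp5e). Among all genes tested 18% fell and 15.4% rose (33.4% in either direction), against 39.5% and 8.14% of the members. The median change of the members was −0.20, against −0.07 for all genes. Of complex I 16 of 38 fell and 2 rose (median −0.21), of complex II 2 of 4 fell and 1 rose (median −0.26), of complex III 6 of 9 fell (median −0.31), of complex IV 3 of 19 fell and 3 rose (median −0.08), and of complex V 7 of 16 fell and 1 rose (median −0.22). Groups did not overlap for 26 members that were lower, against 11% of all genes, and for 4 that were higher, against 6.37%. On every one of the 4 arrays 39 members were lower, against 24.6% of all genes, and 8 higher, against 19%.

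The arrays differed in the size of this shift. The median difference over the members was −0.05 on replicate 1, −0.49 on replicate 2, −0.21 on replicate 3 and −0.19 on replicate 4. Replicate 2 thus stood lowest and replicate 1 near 0, and without replicate 2 the count of falling members was 20. The median change of all members was then −0.11, with −0.11 for complex I, −0.23 for II, −0.20 for III, −0.0027 for IV and −0.13 for V. On the same arrays, in that order, the median difference of the microglia markers was 3.42, 1.75, 1.92 and 0.42, that of the astrocyte markers −2.18, −1.56, −0.30 and −1.45, that of the endothelial markers 0.28, 1.48, 1.01 and 1.80, and that of the mural markers 1.67, 2.91, 2.16 and 0.80. The log2 of the summed level of the microglia markers lay between 14.89 and 15.84 in the WT and between 14.44 and 15.91 in the APP/PS1 astrocyte samples. That of the astrocyte markers lay between 19.12 and 19.27 in WT and between 16.96 and 18.82 in APP/PS1. That of the endothelial markers lay between 16.75 and 17.81 in WT and between 17.85 and 18.57 in APP/PS1. The mural markers lay between 14.95 and 17.71 in WT and between 17.57 and 19.13 in APP/PS1. Array signals have no true 0, so no marker could be called absent. The part of these markers in the subunit changes was not tested. Without the array as a block 10 members fell and 3 rose, with a fit to the astrocyte samples alone 7 fell and 2 rose, and on the arrays matched in Eif2s3y 19 fell and 2 rose.

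**Figure D2:**
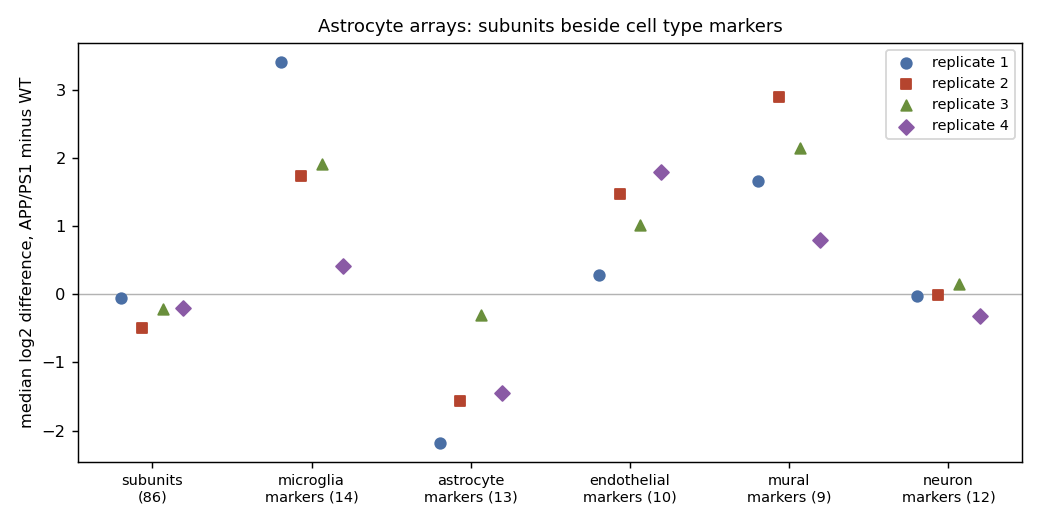
Median log2 difference, APP/PS1 minus WT, within each of the 4 astrocyte arrays for the 86 subunit genes and for lists of cell type markers (number of genes in brackets). The subunits lie between −0.49 and −0.05, with replicate 2 lowest, while the microglia markers lie between 0.42 and 3.42, with replicate 1 highest.

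Of complex I, 5 of the 6 nuclear core subunits analysed fell in astrocytes, against 18% of all genes, and the median over the 6 was −0.41. The core subunits do the electron transfer. Ndufs3, a core subunit of the matrix arm, read 13.73, 14.03, 13.93 and 13.86 in the WT samples of replicates 1 to 4, and 13.15, 13.13, 13.57 and 13.22 in the APP/PS1 samples. The groups did not overlap, and it fell by 0.62 over the 4 arrays (SE 0.09, limma adjusted p = 0.000744). This SE, like the others for astrocytes, rests on a spread per gene shared with the microglia arrays. It does not measure the spread of the 4 astrocyte arrays alone. The other core subunits that fell were Ndufv2 by 0.47, Ndufv1, which binds NADH and the flavin, by 0.42, Ndufs7 by 0.39 and Ndufs1 by 0.29. The Ndufs1 call was lost without replicate 1, 2 or 4, and the Ndufs7 call without replicate 2. Ndufs8, an iron-sulphur subunit of the core, stood at −0.08 ± 0.11, higher on 2 arrays and lower on 2, and did not pass. In microglia 0 of these 6 passed limma's adjusted test, and 1, Ndufs1, had an unadjusted p under 0.05.

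The largest single falls of complex I were among its accessory subunits. As a group the 32 members outside the core fell less, with a median of −0.18 against −0.41 for the core. Of these 32, 11 fell and 2 rose. Ndufc2, a membrane arm subunit, read 14.97, 15.25, 15.27 and 15.22 in WT astrocytes and 13.96, 14.22, 14.87 and 14.15 in APP/PS1 astrocytes, with replicate 3 the highest of the APP/PS1 samples and no overlap. It fell by 0.88 (SE 0.12, adjusted p = 0.000613). Ndufa12, which sits on the matrix arm, read 14.30, 14.54, 14.50 and 14.40 in WT and 13.54, 13.23, 14.03 and 13.62 in APP/PS1, again without overlap. It fell by 0.83 (SE 0.10, adjusted p = 0.000377). Ndufs5 read 14.86, 14.99, 15.23 and 14.91 in WT and 14.18, 14.25, 14.61 and 14.16 in APP/PS1, also apart, and fell by 0.70 (SE 0.07, adjusted p = 0.000216). The other 8 accessory members that fell, Ndufa8, Ndufb4, Ndufb6, Ndufb9, Ndufb10, Ndufc1, Ndufs4 and Ndufv3, stood between −0.53 and −0.28. The calls of Ndufb6 and Ndufb9 were lost without replicate 2 and that of Ndufa8 without replicate 2 or 4. That of Ndufc1 was lost without replicate 2, 3 or 4 and that of Ndufv3 without replicate 1 or 2. The other probes of Ndufb6 (−0.24) and Ndufv3 (−0.20) were not called, while that of Ndufb4 (−0.41) was.

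Ndufa1 and Ndufa4l2 were the 2 members of the complex I list that rose in astrocytes. Ndufa1 read 13.37, 13.11, 12.89 and 13.04 in WT and 14.14, 13.65, 13.44 and 13.83 in APP/PS1, so that all APP/PS1 samples lay above the WT samples. The change was 0.66 ± 0.08 (adjusted p = 0.000358). Ndufa4l2, a paralogue of Ndufa4 known as a target of hypoxia-inducible factor, read 11.32, 10.72, 9.26 and 12.15 in WT and 12.58, 12.75, 10.60 and 12.21 in APP/PS1. The groups overlapped, replicate 3 was lowest in both genotypes, and the difference within replicate 4 was 0.05 against 1.26 to 2.03 on the other arrays. The change was 1.17 ± 0.22 (adjusted p = 0.00295), and it did not pass without the array as a block (adjusted p = 0.138). Ndufa4, which the rule places with complex I although the protein is now counted with cytochrome c oxidase, stood at −0.20 ± 0.11 and did not pass.

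Complex II split. Sdhb, its iron-sulphur subunit, read 14.49, 14.67, 14.23 and 14.40 in WT astrocytes and 13.50, 13.50, 14.02 and 13.90 in APP/PS1 astrocytes, with no overlap, and fell by 0.72 (SE 0.10, adjusted p = 0.000522). Its other probe stood at −0.28 and was not called. Sdhd, a membrane anchor, fell by 0.37. Sdhc, the other anchor, read 12.39, 12.19, 11.89 and 12.43 in WT and 12.96, 12.71, 12.12 and 12.68 in APP/PS1. It was higher on 4 of 4 arrays although the groups overlapped, and rose by 0.39 ± 0.08 (adjusted p = 0.00381), its other probe by 0.29. Sdha, the flavoprotein, stood at −0.14 ± 0.08 and did not pass.

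Of complex III, Uqcrfs1, the Rieske iron-sulphur protein, read 13.78, 14.20, 13.14 and 13.84 in WT astrocytes and 12.71, 12.97, 12.90 and 12.82 in APP/PS1 astrocytes. Every APP/PS1 sample lay below every WT sample, replicate 3 having the lowest WT value, and the gene fell by 0.89 (SE 0.13, adjusted p = 0.000745), a 1.86-fold difference. Uqcrc2, a core protein, fell by 0.46, and its 9 other probes were all called lower, between −0.55 and −0.46. Uqcrc1 fell by 0.37, Uqcr10 by 0.35, Uqcr11 by 0.31 and Uqcrq by 0.30. Each of these 4 calls was lost when certain arrays were left out: that of Uqcrc1 was lost without replicate 1, 2 or 4, those of Uqcr10 and Uqcr11 without replicate 2 or 3, and that of Uqcrq without replicate 2, 3 or 4. The other probes of Uqcr10 (−0.23 and −0.15) and of Uqcrq (−0.14) were not called. Uqcrb, which helps to form the ubiquinone site, stood at 0.22 ± 0.08 and did not pass (adjusted p = 0.068).

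Of the 19 members of complex IV 3 fell and 3 rose in astrocytes, each 15.8%. Both shares were near those of all genes, of which 18% fell and 15.4% rose. Cox5a, which is part of every form of the enzyme, read 15.10, 15.28, 15.49 and 15.40 in WT astrocytes and 14.42, 14.65, 14.86 and 14.48 in APP/PS1 astrocytes, without overlap, and fell by 0.72 (SE 0.10, adjusted p = 0.000606). Cox6b2, the testis isoform of subunit VIb, fell by 0.65 and Cox7b by 0.52. The lowest fitted value, −1.09 ± 0.61 for the muscle isoform Cox8b, did not pass (adjusted p = 0.212). Within the astrocyte arrays Cox8b stood at −1.68, −1.17, −0.93 and −0.59. Its SE shares the spread of the microglia arrays, where its differences ran from −2.03 to 2.16.

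Cox7a2l went the other way. It read 14.06, 13.48, 13.78 and 13.97 in WT astrocytes and 15.03, 14.71, 14.36 and 14.84 in APP/PS1 astrocytes, with no overlap. The change was 0.91 ± 0.09 (adjusted p = 0.000159), a 1.88-fold difference, and its other 2 probes were called too, at 0.86 and 1.27. In microglia the same gene ranged from 14.45 through 14.54 to 14.79 in WT and from 14.36 through 14.57 to 14.79 in APP/PS1, groups that overlapped almost fully.

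Cox6a2 read 5.28, 5.59, 5.70 and 5.15 in WT astrocytes and 8.31, 6.46, 6.76 and 6.44 in APP/PS1 astrocytes. All APP/PS1 samples lay above the WT samples, and replicate 1, with a difference of 3.03 against 0.87 to 1.29 on the other arrays, stood apart. The change was 1.57 ± 0.30 (adjusted p = 0.00318). Without replicate 1, the array on which the microglia markers differed by 3.42, Cox6a2 in astrocytes changed by 1.11 (adjusted p = 0.00909), and on the arrays matched in Eif2s3y by 1.08 (adjusted p = 0.0656). All 4 WT astrocyte samples and all 4 APP/PS1 astrocyte samples lay below the lowest WT microglia sample for this probe. The part of microglial RNA in the change was not tested.

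The other isoform pairs of complex IV differed less. Cox4i2, the isoform of subunit IV known from lung and from cells at low oxygen, read 9.19, 9.0, 8.55 and 9.62 in WT astrocytes and 9.80, 9.58, 8.74 and 9.56 in APP/PS1 astrocytes. It rose by 0.33 ± 0.10 (adjusted p = 0.0265) although the groups overlapped and replicate 4 did not share the direction. Its call was lost without replicate 1, 2 or 3. Cox4i1, the common isoform, stood at −0.08 ± 0.08 in astrocytes, where both samples of replicate 3, at 14.21 and 13.97, lay below all others, which ranged from 15.10 to 15.45. Cox7a1, the muscle isoform of subunit VIIa, stood at −0.24 ± 0.18 and Cox7a2, the common one, at 0.01 ± 0.10. Cox6a1 stood at 0.17 ± 0.08 and Cox8a at −0.04 ± 0.09. None of these 5 passed, and the tests in microglia passed for Cox6a2 alone among the isoforms named here.

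**Figure D3:**
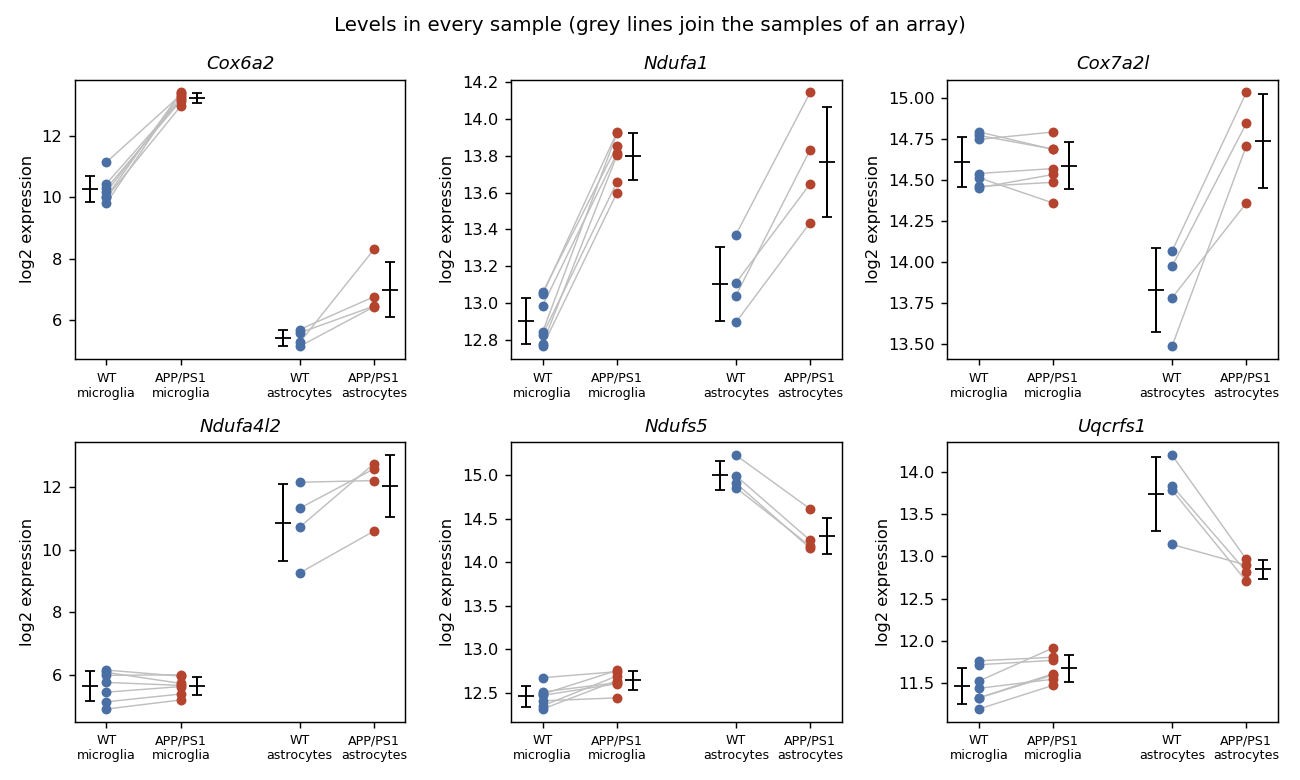
Log2 expression of 6 subunit genes in every sample, with WT in blue and APP/PS1 in red; grey lines join the samples of an array, and black bars are the mean ± SD of each group (n = 7 microglia, n = 4 astrocytes). Cox6a2 and Ndufa1 are apart between genotypes in both cell types, Cox7a2l, Ndufs5 and Uqcrfs1 in astrocytes, and Ndufa4l2 overlaps in both. Axes differ between panels and do not start at 0.

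Of complex V, Atp5mpl, a small membrane subunit of ATP synthase, read 14.30, 14.72, 14.66 and 14.25 in WT astrocytes and 13.89, 13.63, 14.09 and 13.80 in APP/PS1 astrocytes, without overlap. It fell by 0.63 (SE 0.11, adjusted p = 0.00187). Atp5g3, which encodes subunit c of the rotating ring, fell by 0.47, and Atp5pb of the peripheral stalk and Atp5c1, the gamma subunit of the central stalk, each fell by 0.39. Atp5o fell by 0.38, Atp5h by 0.25 and Atp5b by 0.19. The Atp5o and Atp5h calls were lost without replicate 2 or 3, and the Atp5b call whichever array was left out. The other probes of Atp5c1 (−0.21) and Atp5h (−0.13) were not called, while that of Atp5pb (−0.27) was. Atp5e, the epsilon subunit of the central stalk, read 14.13, 14.05, 14.21 and 13.98 in WT and 14.39, 14.25, 14.33 and 14.40 in APP/PS1. All its APP/PS1 samples lay above its WT samples, and it rose by 0.25 ± 0.08 (adjusted p = 0.0321), a call that was lost without replicate 1, 2 or 4. Atp5a1, the alpha subunit, stood at −0.08 ± 0.10 and did not pass.

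**Figure D4:**
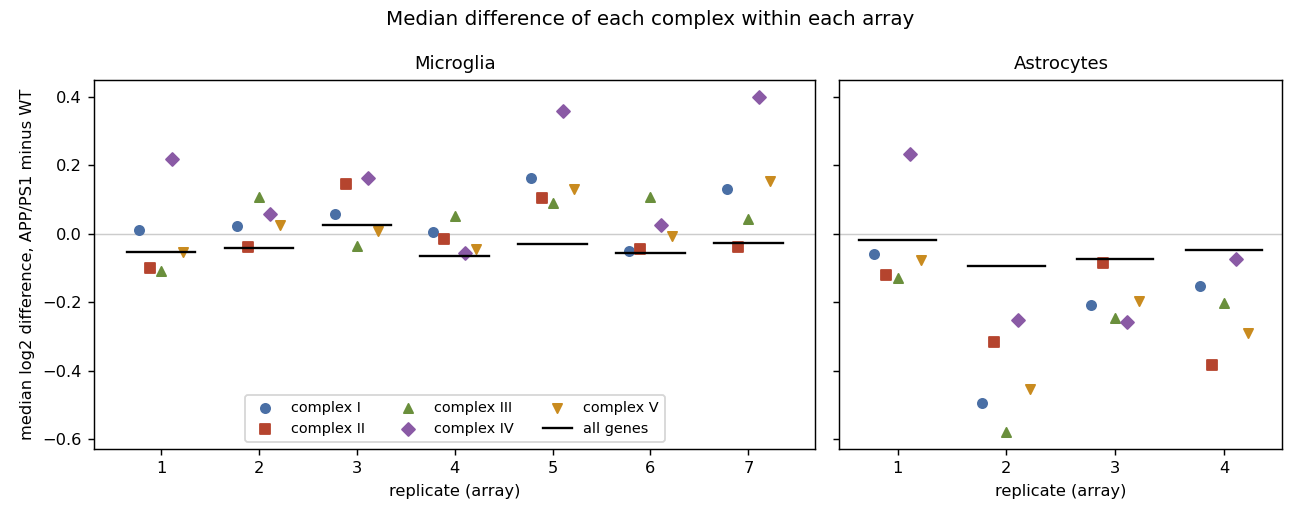
Median log2 difference, APP/PS1 minus WT, of the members of each complex within each array, for 7 microglia arrays (left) and 4 astrocyte arrays (right); the black line is the median over all genes. On astrocyte replicate 2 complex III reaches −0.58 and complex I −0.49, while complex IV is at 0.23 on astrocyte replicate 1 and reaches 0.40 on microglia replicate 7. These differences are not corrected for dye. APP/PS1 was in Cy3 on microglia replicates 1, 3, 5 and 7 and astrocyte replicates 1 and 2. It was in Cy5 on the others. In microglia complex IV is at 0.22, 0.16, 0.36 and 0.40 on the Cy3 arrays and at 0.06, −0.06 and 0.02 on the others. In astrocytes it is at 0.23 and −0.25 on the Cy3 arrays and at −0.26 and −0.07 on the others.

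Of the 41 members called in astrocytes, 25 were called whichever array was left out, 5 higher and 20 lower, and 0 changed sign. The 5 were Cox6a2, Ndufa4l2, Cox7a2l, Ndufa1 and Sdhc. On the arrays matched in Eif2s3y, which are the same arrays without the 2 that differed, 41 of 41 had the same sign. As the calls were made on these arrays too, a change of sign could hardly occur. Both cell types shared 3 calls in the same direction: Ndufa1 and Cox6a2 rose in both and Atp5b fell in both. The Atp5b call was lost in astrocytes whichever of the 4 arrays was left out (highest adjusted p = 0.119) and in microglia whichever of the 7 was (highest adjusted p = 0.0999). Of the members, 0 were called in opposite directions and 40 were called in neither. The shares of all genes for these counts were not computed. The counts therefore cannot be read as agreement between the cell types.

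The genotype effects were compared between the cell types in the same limma model. For 34 members the effect was lower in astrocytes than in microglia and for 5 it was higher, against 13.2% and 13.4% of all genes (26.6% in either direction). Without astrocyte replicate 2 the 34 became 21, and without astrocyte replicate 1 or microglia replicate 4 the 5 became 3. The effect was higher in astrocytes for Ndufa4l2 (1.19 ± 0.28), Cox7a2l (0.95 ± 0.11), Sdhc (0.45 ± 0.10), Cox4i2 (0.41 ± 0.12) and Atp5e (0.35 ± 0.10). It was most strongly lower for Cox6a2 (−1.37 ± 0.38, adjusted p = 0.0242), Uqcrfs1 (−1.11 ± 0.16), Ndufa12 (−0.88 ± 0.13), Ndufs5 (−0.87 ± 0.09) and Ndufc2 (−0.77 ± 0.15). Cox6a2 thus rose in both cell types and less in astrocytes, a difference that no longer passed without astrocyte replicate 2, 3 or 4 (highest adjusted p = 0.084). For Ndufa1 the difference of effects was −0.23 ± 0.10 and did not pass (adjusted p = 0.129).

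Among WT samples, nearly all subunits were higher in astrocytes than in microglia. Of 86 members 74 were higher and 2 lower, against 35.2% and 18% of all genes (53.2% in either direction), and the median difference was 1.37 against 0.34. By complex the median differences were 1.5 for I, 1.35 for II, 1.24 for III, 1.20 for IV and 1.38 for V. The 2 lower members were Cox6a2 (−4.87 ± 0.35) and Cox7a2l (−0.79 ± 0.14). Ndufa4l2 ranged from 4.92 through 5.76 to 6.16 in WT microglia and from 9.26 to 12.15 in WT astrocytes, 5.20 ± 0.40 apart. Cox7a1 stood at 2.64 ± 0.22 and Ndufs5 at 2.54 ± 0.11. Cox8b and Cox7b2 had no value on 1 and 5 of the 7 microglia arrays and are given no size. With the slide as a random block 69 were higher and 2 lower. The microglia were hybridised on 2 slides and all astrocytes on another, so a slide effect and cell type cannot be fully told apart. Endothelial and mural markers were also higher in the WT astrocyte samples, and their part in these differences was not tested.

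**Figure D5:**
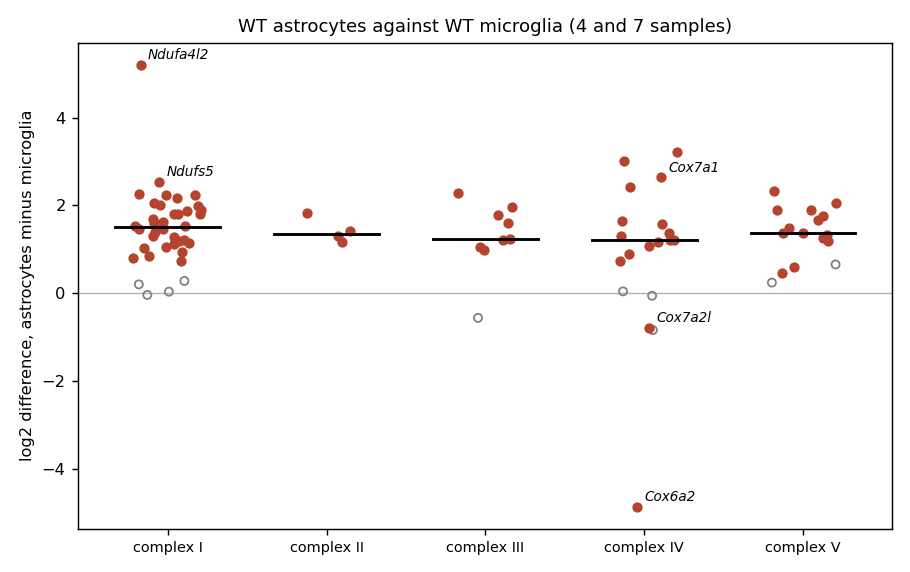
Log2 difference of each of the 86 subunit genes between WT astrocytes (n = 4) and WT microglia (n = 7), by complex; filled red points passed the limma test over all genes, open points did not, and black lines are medians. Medians lie between 1.20 and 1.5, with Ndufa4l2 at 5.20 and Cox6a2 at −4.87.

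Other mitochondrial gene lists were read beside the subunits. In astrocytes 7 of 7 carriers and channels of the mitochondrial membranes fell, among them Vdac1, the outer membrane channel (−0.65 ± 0.09), and Slc25a3, the phosphate carrier that feeds ATP synthase (−0.64 ± 0.10). In microglia 2 of these 7 rose, Slc25a3 by 0.46 ± 0.07 and the ADP/ATP carrier Slc25a4 by 0.23 ± 0.05, and the difference of effects for Slc25a3 was −1.09 ± 0.12 (adjusted p = 0.000278). Of 16 electron carriers and enzymes that feed the chain, 10 fell in astrocytes, led by Etfb (−0.72 ± 0.12) and Cyc1, cytochrome c1 (−0.55 ± 0.09). Cytochrome c1 is itself a subunit of complex III, which the name rule of the members leaves out. In microglia 3 of the 16 rose and 3 fell, with Gpd2, the mitochondrial glycerol phosphate dehydrogenase, at 0.75 ± 0.07 and Coq7, an enzyme of ubiquinone synthesis, at 0.74 ± 0.08. Of 13 tricarboxylic acid cycle genes 7 fell in astrocytes, citrate synthase Cs most (−0.83 ± 0.10), while in microglia 1 rose and 2 fell, Idh2 by 0.85. These counts stand against the 18% of all genes that fell and 15.4% that rose in astrocytes, and the 11.4% that fell and 8.27% that rose in microglia.

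Of 44 assembly factors 16 fell and 2 rose in astrocytes, with Sco2, which delivers copper to complex IV, at −0.95 ± 0.13, and in microglia 5 fell and 3 rose. Of 49 large mitochondrial ribosome proteins 20 fell and 1 rose in astrocytes, with Mrpl45 at −0.68 ± 0.09, and in microglia 3 fell and 3 rose. Of all genes 18% fell and 15.4% rose in astrocytes and 11.4% fell and 8.27% rose in microglia, so the microglia share of falling assembly factors was near the background. Of 12 regulators of mitochondrial biogenesis 3 fell and 2 rose in astrocytes and 4 fell in microglia. Ppargc1a, the coactivator PGC-1alpha, fell by 0.95 in microglia (SE 0.27, adjusted p = 0.0459) and by 1.23 in astrocytes (SE 0.27, adjusted p = 0.0104), with values on 5 of the 7 microglia arrays. Its relative Ppargc1b rose by 1.67 ± 0.43 in astrocytes (adjusted p = 0.0189) and stood at 0.64 ± 0.43 in microglia on the same 5 arrays, where it did not pass. Gabpb1, a subunit of the transcription factor NRF-2, rose by 0.33 ± 0.11 in astrocytes (adjusted p = 0.0421), and the mitochondrial RNA polymerase Polrmt fell by 0.35 there. Esrra, the nuclear receptor ERRalpha, fell by 0.78 in astrocytes, and Tfam, which packages mitochondrial DNA, fell by 0.32 in microglia and stood at 0.21 ± 0.08 in astrocytes.

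Upstream sequence was read from RefSeq windows of the GRCm38.p6 build, of which the 250 bases before the start were used. Of the 86 members 67 had a window. Cox6a2 and Ndufa4l2 had none, so no sequence is shown for them. The windows shown are those of Ndufa1, higher in both cell types, Cox7a2l, higher in astrocytes, and Ndufs5 and Uqcrfs1, lower in astrocytes. That of Cox6a1, the common isoform beside Cox6a2, is also shown, although it was called in neither cell type. Capitals mark matches, on either strand, to motifs of factors known from respiratory chain genes: the core repeat of the NRF1 motif (TGCGCA, the same on both strands), the GABP Ets motif (CCGGAAG) and the core of the ERR motif (AAGGTCA). No letters of these motifs overlap in the windows shown.
Ndufa1 (GRCm38.p6, chrX:37191239-37191488, minus strand): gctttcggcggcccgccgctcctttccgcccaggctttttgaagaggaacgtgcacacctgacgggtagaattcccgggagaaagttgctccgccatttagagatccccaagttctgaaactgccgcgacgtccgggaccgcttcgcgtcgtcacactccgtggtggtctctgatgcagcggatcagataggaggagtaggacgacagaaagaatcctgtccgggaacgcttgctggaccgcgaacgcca
Cox7a2l (GRCm38.p6, chr17:83514334-83514583, minus strand): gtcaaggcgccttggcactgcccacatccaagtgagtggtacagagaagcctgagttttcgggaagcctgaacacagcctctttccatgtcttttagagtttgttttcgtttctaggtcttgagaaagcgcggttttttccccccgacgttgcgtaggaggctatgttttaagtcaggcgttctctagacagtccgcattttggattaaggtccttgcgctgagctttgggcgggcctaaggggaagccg
Ndufs5 (GRCm38.p6, chr4:123718187-123718436, minus strand): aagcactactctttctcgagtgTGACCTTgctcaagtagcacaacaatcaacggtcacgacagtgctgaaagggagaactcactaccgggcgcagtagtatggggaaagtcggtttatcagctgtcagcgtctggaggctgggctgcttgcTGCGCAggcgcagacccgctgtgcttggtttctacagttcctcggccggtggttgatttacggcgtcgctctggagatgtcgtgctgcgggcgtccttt
Uqcrfs1 (GRCm38.p6, chr13:30545317-30545566, minus strand): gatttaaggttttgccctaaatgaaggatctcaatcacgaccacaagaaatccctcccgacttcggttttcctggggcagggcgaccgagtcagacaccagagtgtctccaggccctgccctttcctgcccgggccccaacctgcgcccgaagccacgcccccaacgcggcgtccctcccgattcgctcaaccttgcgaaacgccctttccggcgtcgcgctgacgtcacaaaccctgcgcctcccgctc
Cox6a1 (GRCm38.p6, chr5:115348959-115349208, minus strand): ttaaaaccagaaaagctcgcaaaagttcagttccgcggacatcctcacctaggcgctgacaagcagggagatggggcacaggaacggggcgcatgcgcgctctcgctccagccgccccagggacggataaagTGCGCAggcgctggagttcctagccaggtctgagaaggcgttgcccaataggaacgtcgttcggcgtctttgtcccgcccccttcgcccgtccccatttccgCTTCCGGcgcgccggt
Ndufs5 holds 2 matches, to the ERR core and the NRF1 core, and Cox6a1 holds 2, to the NRF1 core and GABP. The other 3 windows hold 0. The NRF1 core lay in 20.8% of the 72 member windows and 6.43% of all 32851 windows, the GABP motif in 16.7% and 6.91%, and the ERR core in 6.94% and 4.08%. Of the 67 members with a window, 14 held the NRF1 core, 12 the GABP motif and 5 the ERR core. Of the 29 of them that fell in astrocytes, 5 held the NRF1 core, 5 the GABP motif and 3 the ERR core. A link between motif and fall was not tested. A match is a string of letters and not a shown binding site.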

How the data were processed

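RNA of 22 sorted samples had been amplified, labelled with Cy3 or Cy5 and hybridised to 11 dual-colour Agilent arrays on 3 slides, per the labels' protocols. The deposited table holds the authors' processed log2 values, 1 column per sample and 43020 probes. The submitters' processing notes name limma; how signals were background-corrected and scaled is not given in the sources used here, so the centring is unknown. Of the probes 33026 named 1 gene (22485 genes) and 9994 had no gene name here. No further scaling was applied. Genes were fitted in limma 3.58.1 (R 4.3.3) with array as a block, dye, and genotype within each cell type, over all 22 samples. Each gene thus had a common estimate of spread and dye effect for both cell types. All SEs and p-values of the genotype effects use it. The p-values were adjusted by Benjamini-Hochberg over all genes tested. WT cell types were compared in limma with array as a random block. Pairing comes from the labels: samples of a number share an array. Their deviations correlated with a median r of 0.47 in microglia and 0.08 in astrocytes. The fit was tested on simulated data. Named genes were all members called, the extremes of each complex and the isoform pairs, with up to 3 genes of smallest p from each other list. Members and lists were chosen with earlier results of these data known. Alternatives were the block, dye, normalization, filters, probe averaging, slides, arrays matched in Eif2s3y and leaving out each array. The number of arrays limits the precision. Promoter windows were searched in Python 3.11.15.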

Additional observations from a re-analysis of the deposited data

Results flagged for a closer look

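Dixon's test for an extreme value was applied to 66 sets of within-array differences and marked 3, a share of about 1 set in 20, which is what chance gives. Cox8a in microglia stood at −0.17 on replicate 4, against 0.07 to 0.19 on the other arrays. Cox6a1 in astrocytes stood at 0.018 on replicate 3, against 0.20 to 0.23. Ndufc2 in astrocytes stood at −0.40 on replicate 3, against −1.07 to −1.0.

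By a limma test of the difference, the genotype effect differed between the cell types for 39 members, 5 higher and 34 lower in astrocytes. The 5 higher and the 5 most strongly lower are given here. The effect in astrocytes minus that in microglia was 1.19 for Ndufa4l2, 0.95 for Cox7a2l, 0.45 for Sdhc, 0.41 for Cox4i2 and 0.35 for Atp5e. It was −1.37 for Cox6a2, −1.11 for Uqcrfs1, −0.88 for Ndufa12, −0.87 for Ndufs5 and −0.77 for Ndufc2.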

How the results depend on the processing

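The counts of calls moved with the processing. In microglia (7 higher, 1 lower) the count of higher members was 2 without the replicate block, on slide 1, on slide 2 and on arrays matched in Eif2s3y, 11 over genes measured on all arrays, 12 with microglia samples alone, 15 with the array as a random block or quantile normalization, 18 over genes above the median gene, and 3 to 6 with an array left out. The lower count was 0 without the replicate block, without a dye term, with quantile normalization, on either slide and on the matched arrays, 2 with microglia alone, 3 above the median gene, and 0 with any array left out. In astrocytes (7 higher, 34 lower) the counts were 3 and 10 without the replicate block, 2 and 7 with astrocyte samples alone and 2 and 19 on matched arrays, with 5 to 7 higher and 20 to 33 lower when an array was left out. For the difference of effects (5 higher, 34 lower) they were 1 and 7 without the replicate block and 1 and 15 on matched arrays, with 3 to 5 and 21 to 33 when an array was left out. For WT cell types 74 to 75 were higher and 2 to 3 lower when an array was left out. The causes were not tested. With quantile normalization, probes averaged, genes above the median gene, the tissue-restricted isoforms left out, 1 slide of microglia alone or an array left out, the member median stayed between 0.03 and 0.11 in microglia and between −0.25 and −0.11 in astrocytes; in microglia the medians of complexes II (−0.07 to 0.02) and III (−0.01 to 0.08) took both signs. No called value changed sign, though the alternatives reuse the same arrays. Of the values of single members under alternatives 931 kept their call, 124 lost it and 12 gained it. Members with no value on some arrays (Cox6a1, Cox8b, Cox7b2, Cox8c) rest on fewer arrays.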
